A study of Mus musculus with 8 samples.

Results

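The genes described here encode the folding and secretion machinery of the endoplasmic reticulum (ER), measured in mouse spleen RNA. They are 57 genes chosen by name: chaperones, oxidoreductases, ER-associated degradation, the translocon and its partners, ER-to-Golgi transport, and the sensors of ER stress. Every probe whose symbol in the platform annotation is one of the 57 was taken, which gave 70 of the 25697 probes on the array, for 51 of the 57 genes. No probe was listed here for Dnajb11, Sdf2l1, Ppib, Sec61g, Sec31a and Atf6. Measured values played no part in this rule, although the list was drawn up with earlier results of the same arrays known.

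Spleens came from B6D2F1J recipients 10 weeks old, 14 days after they received donor cells. In this parent-into-F1 model of lupus, donor lymphocytes respond to a hybrid recipient. The comparison sets 4 arrays with a DBA donor against 4 with a B10.D2 donor, and asks how spleen RNA differs with the donor. DBA is a parent strain of this hybrid and B10.D2 is not. All recipients share the hybrid background, and none without donor cells was analysed here. Whether replicates are separate animals is not labelled, so a p-value covers only the spread between these samples, part of which may be technical.

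Secreted and membrane proteins enter the ER through the Sec61 channel, lose their signal peptide to signal peptidase, and receive sugar chains from the oligosaccharyltransferase. Inside, chaperones such as BiP (Hspa5), GRP94 (Hsp90b1) and calreticulin (Calr) and the protein disulfide isomerases fold them. Misfolded chains are drawn back out and degraded, while folded ones leave in COPII vesicles, and KDEL receptors return escaped chaperones from the Golgi. In the spleen, plasma cells depend most heavily on this machinery, because they secrete antibody in bulk. A load of unfolded protein activates the sensors Ire1 (Ern1), Perk (Eif2ak3) and Atf6, which raise many of these genes through short elements in their promoters.

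Those elements can be read in the RefSeq promoters of GRCm38.p6, taken from 250 bases before to 50 bases after each gene's start. A promoter was given for 46 of the 57 genes. The ER stress element, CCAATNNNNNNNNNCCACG, searched as these exact letters on both strands, was found in 8 of the 46 (17.4%), against 0.137% of the 27025 genes with a promoter (37 genes). Its sites in 7 of the members are set out to show the shared end blocks, in capitals, around a free spacer of 9 bases.
Hspa5: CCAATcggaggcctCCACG
Calr: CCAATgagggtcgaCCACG
Canx: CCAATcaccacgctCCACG
Pdia6: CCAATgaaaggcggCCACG
Dnajc3: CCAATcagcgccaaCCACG
Ero1b: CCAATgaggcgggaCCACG
Syvn1: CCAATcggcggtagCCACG

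The eighth member, Hsp90b1, holds 2 copies on opposite strands, and its whole promoter is given with both in capitals (chr10:86705395-86705694, minus strand, read 5′ to 3′).
Hsp90b1: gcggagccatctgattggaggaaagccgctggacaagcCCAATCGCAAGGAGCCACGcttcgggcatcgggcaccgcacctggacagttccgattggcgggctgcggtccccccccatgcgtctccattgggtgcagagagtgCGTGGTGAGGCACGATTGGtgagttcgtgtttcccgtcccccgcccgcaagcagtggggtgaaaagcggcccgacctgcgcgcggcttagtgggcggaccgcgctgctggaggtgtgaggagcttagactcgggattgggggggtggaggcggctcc
The promoters of Calr (chr8:84846882-84847181, minus strand) and Hspa5 (chr2:34771840-34772139, plus strand) are shown for the same reason, since the results turn on the first, and the second is the textbook target of the element.
Calr: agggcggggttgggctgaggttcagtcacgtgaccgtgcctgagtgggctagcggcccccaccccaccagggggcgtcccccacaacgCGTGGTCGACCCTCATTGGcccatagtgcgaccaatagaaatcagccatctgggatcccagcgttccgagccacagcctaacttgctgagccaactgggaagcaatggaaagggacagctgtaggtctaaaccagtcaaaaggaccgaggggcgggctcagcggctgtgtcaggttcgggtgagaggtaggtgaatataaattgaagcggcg
Hspa5: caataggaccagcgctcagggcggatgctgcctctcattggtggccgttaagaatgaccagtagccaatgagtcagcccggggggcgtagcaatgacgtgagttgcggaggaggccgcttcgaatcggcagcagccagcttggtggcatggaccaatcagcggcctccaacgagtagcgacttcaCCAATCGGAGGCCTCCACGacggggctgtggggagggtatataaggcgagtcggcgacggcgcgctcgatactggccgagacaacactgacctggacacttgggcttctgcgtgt
In Calr the element lies on the opposite strand. A related element, ATTGGNCCACG, occurred in Herpud1 and Dnajb11 among the 46 (4.35%, against 0.0444% of all), and TGACGTGG occurred in Sec24d (2.17%, against 0.714%). Outside the 57 genes, Creld2 and Derl3, from a list of 54 other genes of the same pathway, also held the ER stress element. A match shows these letters in this window and is not a measured site of binding.

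Of the 70 probes, 53 were detected on at least 4 of the 8 arrays (detection p under 0.05 against the array's own negative controls) and were tested. They stand for 42 genes, each represented by its brightest tested probe. The 9 listed genes without a tested probe were Canx, Manf, Derl1, Rpn1, Sec62, Spcs2, Ssr1, Kdelr1 and Ern1. Calnexin (Canx) read 4.40 ± 0.03 in the DBA donor group and 4.45 ± 0.03 in the B10.D2 donor group (SD, n = 4, normalized log2 intensity), and was not detected on any array. Rpn1, a ribophorin of the oligosaccharyltransferase, read 4.70 ± 0.07 and 4.65 ± 0.18. Kdelr1 read 4.41 ± 0.05 and 4.37 ± 0.02. These are dim probes of genes that nearly every cell uses, so they do not show that the RNA was absent.

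Before the comparison, 1 array needs naming. Of 15 probes for 13 genes of pancreatic acinar cells, 14 failed the detection filter, and all 14 were detected on B10.D2 donor replicate 4, where they read 7.11 to 11.97. On the other 7 arrays the same probes read 4.29 to 5.05. The tested gene, the elastase Cela1, read 10.87 there and 8.32 to 8.96 elsewhere. Results are therefore given with and without B10.D2 donor replicate 4. Spleen identity was otherwise plain, with tested probes for 7 of 8 mature B cell, 8 of 8 T cell, 5 of 5 erythroid and 9 of 9 red pulp macrophage markers that had a probe. Each array detected 12601 to 13320 probes. Correlations between arrays were 0.98 to 0.994 inside a donor group and 0.977 to 0.992 across the 2 groups.

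ER genes had higher mean values in DBA donor spleens almost throughout, by small amounts, and no single one passed the test over the whole array. Of the 42 tested genes, 36 (85.7%) had a positive difference, DBA donor minus B10.D2 donor, against 46% of the 9028 tested genes. Their median log2 difference was 0.24, beside -0.02 over all tested genes. With median scaling in place of quantile normalization these medians were 0.09 and -0.18. In limma, 0 of the 53 member probes passed at an adjusted p under 0.05, where 0.0695% of all tested probes did. Counted as genes, 0 of 42 passed, against 0.0775% of all. At an unadjusted p under 0.05, 12 genes (28.6%) were higher and 0 were lower, against 6.14% and 8.15% of all tested genes. The arrays of the 2 groups did not overlap for 3 genes (7.14%, against 3.69% of all genes in the same direction), namely Calr, Sec11c and Ddost, and for 0 in the other direction (4.76% of all). In bulk RNA, fewer cells of a type and less RNA per cell cannot be told apart.

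**Figure D1:**
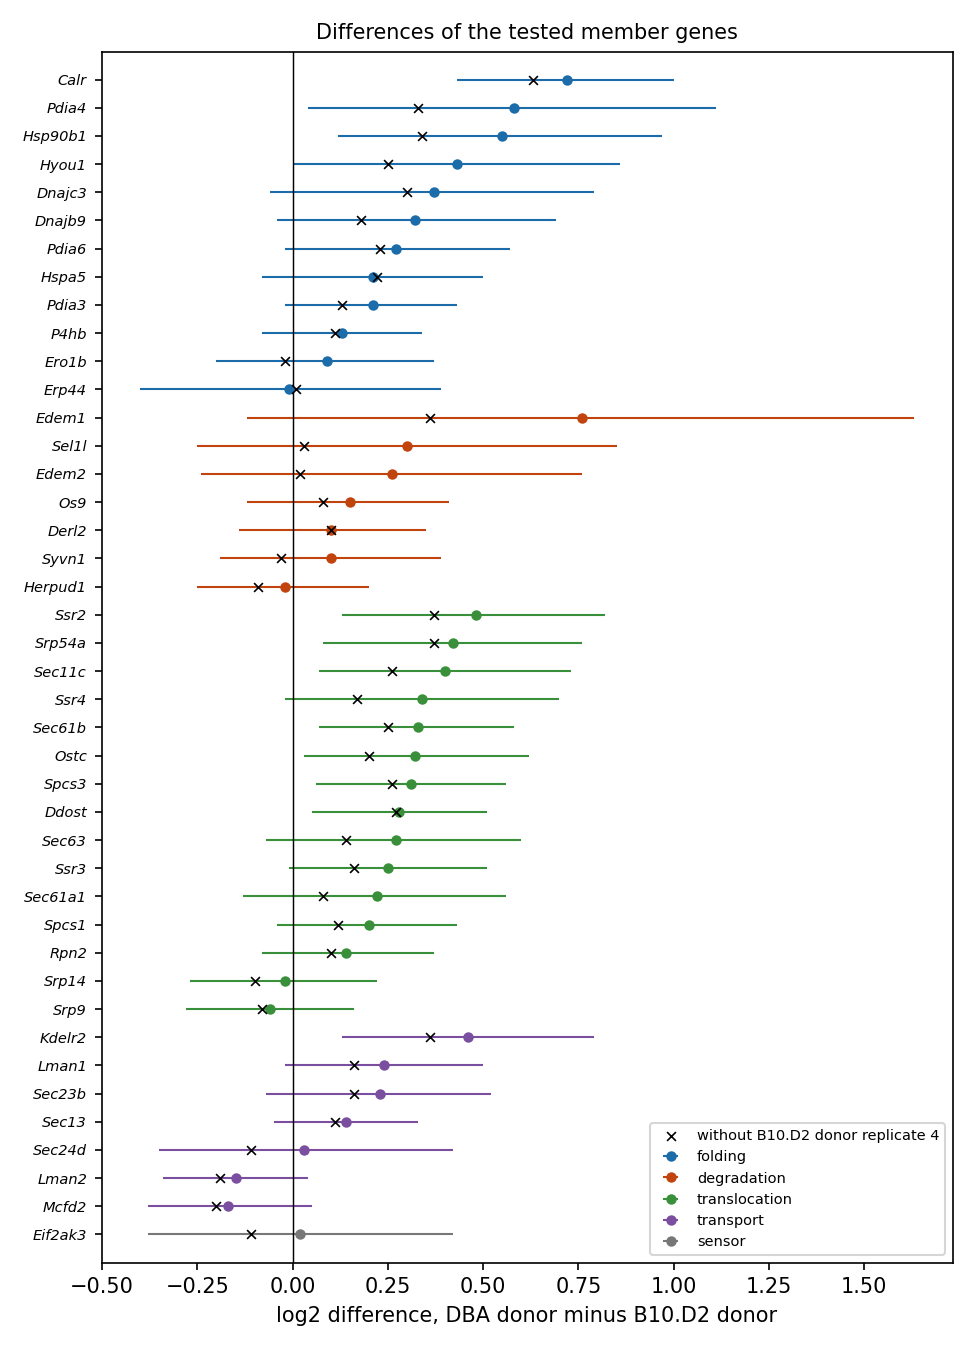
Log2 difference (DBA donor minus B10.D2 donor) of the 42 tested member genes, grouped by role, with 95% confidence intervals from limma (points and bars, 4 arrays per group) and the value without B10.D2 donor replicate 4 (crosses). Calr has the interval farthest above 0 (0.43 to 1.00) and Edem1 the widest (-0.12 to 1.63), while Lman2 and Mcfd2 lie below 0.

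The folding genes were led by calreticulin, the calcium-binding lectin chaperone of glycoproteins. Calr read 9.11, 9.35, 9.28 and 9.06 on the DBA donor arrays and 8.69, 8.35, 8.67 and 8.22 on the B10.D2 donor arrays, in replicate order (DBA donor values come first throughout). Every DBA donor array lay above every B10.D2 donor array. The log2 difference was 0.72, or 1.64-fold (SE 0.13, 95% confidence interval 0.43 to 1.00), with an adjusted p of 0.0894 in limma. Leaving out each array in turn gave 0.63 to 0.79, and 0.63 was the value without B10.D2 donor replicate 4 (limma adjusted p = 0.0787). With limma's array weights (0.68, adjusted p = 0.0427) and with median scaling (0.50, adjusted p = 0.0422) it passed. Of all 12950 tested probes 38 and 625 passed there, against 9 in the main fit. Under median scaling its unadjusted limma p was larger than in the main fit (0.00127, against 0.000191). The limma adjusted p was 0.168 with the replicate number as a block, and 0.0787 to 0.29 with each array left out.

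Hsp90b1, the ER form of Hsp90, read 12.56, 12.36, 12.60 and 12.44 on the DBA donor arrays and 12.40, 12.03, 12.02 and 11.32 on the B10.D2 donor arrays. The DBA donor arrays were close together, while the B10.D2 donor arrays spread over 1.08, and the first of them reached the DBA donor range. The log2 difference was 0.55 (SE 0.19, limma adjusted p = 0.243), or 0.34 without B10.D2 donor replicate 4. Pdia4, a disulfide isomerase that works with BiP, had the same shape, with 10.88, 10.67, 10.73 and 10.48 against 10.80, 10.06, 10.21 and 9.38. Its difference was 0.58 (SE 0.24, limma adjusted p = 0.313), falling to 0.33 without that array. Hyou1, a large chaperone and exchange factor of BiP, read 7.01, 6.54, 7.08 and 6.99 against 6.90, 6.56, 6.51 and 5.93 (difference 0.43, SE 0.19, limma adjusted p = 0.345; 0.25 without it). For all 3 genes it was the fourth B10.D2 donor array that read lowest.

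The other disulfide isomerases had smaller differences. Pdia3, the isomerase that partners calreticulin, read 11.91, 11.85, 11.88 and 11.71 against 11.79, 11.62, 11.70 and 11.41, a difference of 0.21 (SE 0.10, limma adjusted p = 0.386). P4hb, the founding member of the isomerase family, read 11.71, 11.44, 11.73 and 11.65 against 11.63, 11.52, 11.40 and 11.45. Its difference of 0.13 (95% confidence interval -0.08 to 0.34) was near its SE of 0.10, and became -0.0034 with median scaling. Pdia6 read 6.55, 6.62, 6.65 and 6.36 against 6.63, 6.29, 6.03 and 6.16 (0.27, SE 0.13, limma adjusted p = 0.383). The groups overlapped for all 3 isomerases.

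BiP itself was measured by a dim probe. Hspa5 read 5.31, 5.10, 5.36 and 5.45 on the DBA donor arrays and 5.36, 4.78, 5.12 and 5.12 on the B10.D2 donor arrays, detected on 4 and 3 of 4 arrays. Its difference was 0.21 (95% confidence interval -0.08 to 0.50), and the offset added before the log shrinks differences of such dim probes. The J-domain partners of BiP, Dnajb9 (0.32) and Dnajc3 (0.37), leaned the same way with overlapping groups, while the oxidase Ero1b (0.09, SE 0.13) and the retention factor Erp44 (-0.01, SE 0.18) stayed below their own SE. Of the 12 tested folding genes, 11 had a positive difference (median 0.30, or 0.14 with median scaling). At an unadjusted p under 0.05, 4 were higher (33.3%, against 6.14% of all tested genes): Calr, Hsp90b1, Pdia4 and Hyou1. Without B10.D2 donor replicate 4 the median was 0.23, and 2 of them were higher at that threshold (16.7%, against 7.41%), Calr and Hsp90b1.

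The 7 tested members that carry the ER stress element in their promoter had differences of 0.09 (Ero1b) to 0.72 (Calr), with a median of 0.27. The 27 tested members whose promoter lacked it ran from -0.17 to 0.76, with a median of 0.20. At an unadjusted p under 0.05, 2 of the 7 and 4 of the 27 were higher (all tested genes, 6.14%). The ranges overlap nearly whole, and no test was made of this split.

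**Figure D2:**
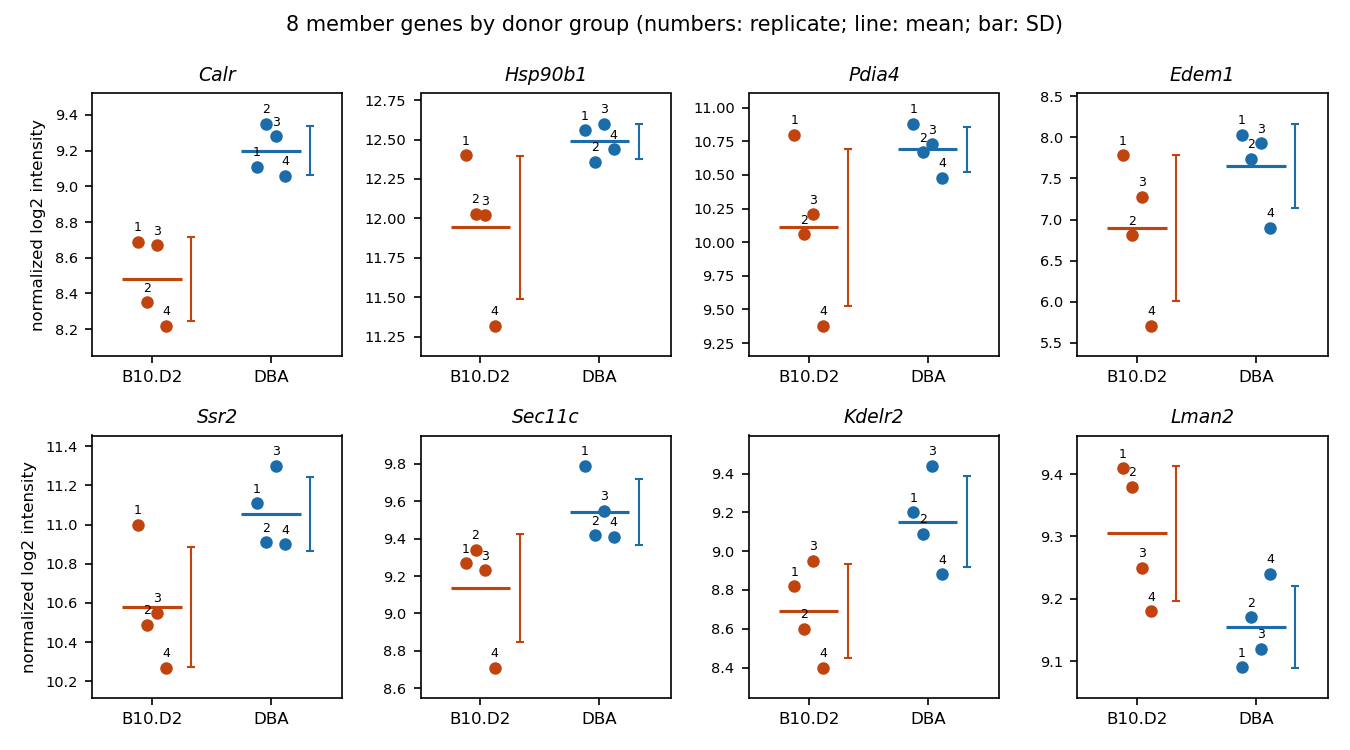
Normalized log2 intensity of 8 member genes on each array (numbers are replicates, lines group means, bars SD, n = 4 per group; each axis has its own range and does not start at 0). Calr and Sec11c do not overlap between groups; for Hsp90b1, Pdia4 and Edem1, B10.D2 donor replicate 1 lies among or near the DBA donor arrays and replicate 4 lies lowest.

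Genes of the entry machinery had small positive differences with few exceptions. Of 15 tested genes of translocation, signal peptide cleavage and N-glycosylation, 13 had a positive difference (median 0.28), and 7 (46.7%, against 6.14% of all tested genes) were higher at an unadjusted p under 0.05, with 0 lower. Without B10.D2 donor replicate 4 the median was 0.17 and the count 5 (33.3%, against 7.41%). With median scaling, which lowered the median of all genes to -0.18, the median of this group was 0.11.

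Sec61b, the beta subunit of the channel, read 9.62, 9.53, 9.65 and 9.36 on the DBA donor arrays and 9.47, 9.19, 9.23 and 8.98 on the B10.D2 donor arrays. The difference was 0.33 (SE 0.12, limma adjusted p = 0.252). Its dimmer probe had the larger difference, 0.51 (SE 0.10, limma adjusted p = 0.119), with groups that did not overlap (7.98 to 8.26 against 7.42 to 7.75). Sec61a1, the pore subunit, read 9.20, 8.91, 9.06 and 8.89 against 9.17, 8.91, 8.74 and 8.38, a difference of 0.22 (95% confidence interval -0.13 to 0.56) that dropped to 0.08 without B10.D2 donor replicate 4. Sec63, the J-domain protein at the channel, had 0.27 and 0.37 on its tested probes.

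Among the channel's partners, Ssr2, a subunit of the translocon-associated protein complex, read 11.11, 10.91, 11.30 and 10.90 against 11.00, 10.49, 10.55 and 10.27. Only B10.D2 donor replicate 1 reached the DBA donor range (difference 0.48, SE 0.15, limma adjusted p = 0.225). Ssr3 (0.25) and Ssr4 (0.34) of the same complex had overlapping groups. Sec11c, a catalytic subunit of signal peptidase, read 9.79, 9.42, 9.55 and 9.41 against 9.27, 9.34, 9.23 and 8.71. Its groups did not overlap (difference 0.40, SE 0.15, limma adjusted p = 0.267). The difference of Sec11c fell to 0.26 without B10.D2 donor replicate 4. Spcs3, another subunit, read 10.37, 10.23, 10.45 and 10.40 against 10.34, 9.99, 10.00 and 9.89 (0.31, SE 0.11, limma adjusted p = 0.252). Spcs1 of the same enzyme differed by 0.20 (SE 0.11) with overlapping groups. Its dimmer probe differed by 0.30 (SE 0.10, limma adjusted p = 0.229), with groups that did not overlap. Without B10.D2 donor replicate 4 these probes of Spcs1 were at 0.12 and 0.24.

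Ddost, a subunit of the oligosaccharyltransferase, read 9.12, 8.88, 9.20 and 8.83 on the DBA donor arrays and 8.82, 8.69, 8.70 and 8.71 on the B10.D2 donor arrays. The groups were separated by 0.01 only, and the difference was 0.28 (SE 0.10, limma adjusted p = 0.265) and 0.27 without B10.D2 donor replicate 4. It shrank to 0.06 with median scaling. Ostc of the same enzyme differed by 0.32 (SE 0.13) and Rpn2 by 0.14 (SE 0.10).

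The signal recognition particle, which brings ribosomes to the channel, was not uniform. Srp54a, its signal-binding GTPase, read 7.42, 7.70, 7.65 and 7.03 against 6.92, 7.07, 7.25 and 6.87 (difference 0.42, SE 0.15, limma adjusted p = 0.258). Srp9 (-0.06, 95% confidence interval -0.28 to 0.16) and Srp14 (-0.02, 95% confidence interval -0.27 to 0.22), which together hold the elongation-arrest domain, were the negative members of the group. The second probe of Srp9 was at 0.02. The difference between Srp54a and this pair was not tested.

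**Figure D3:**
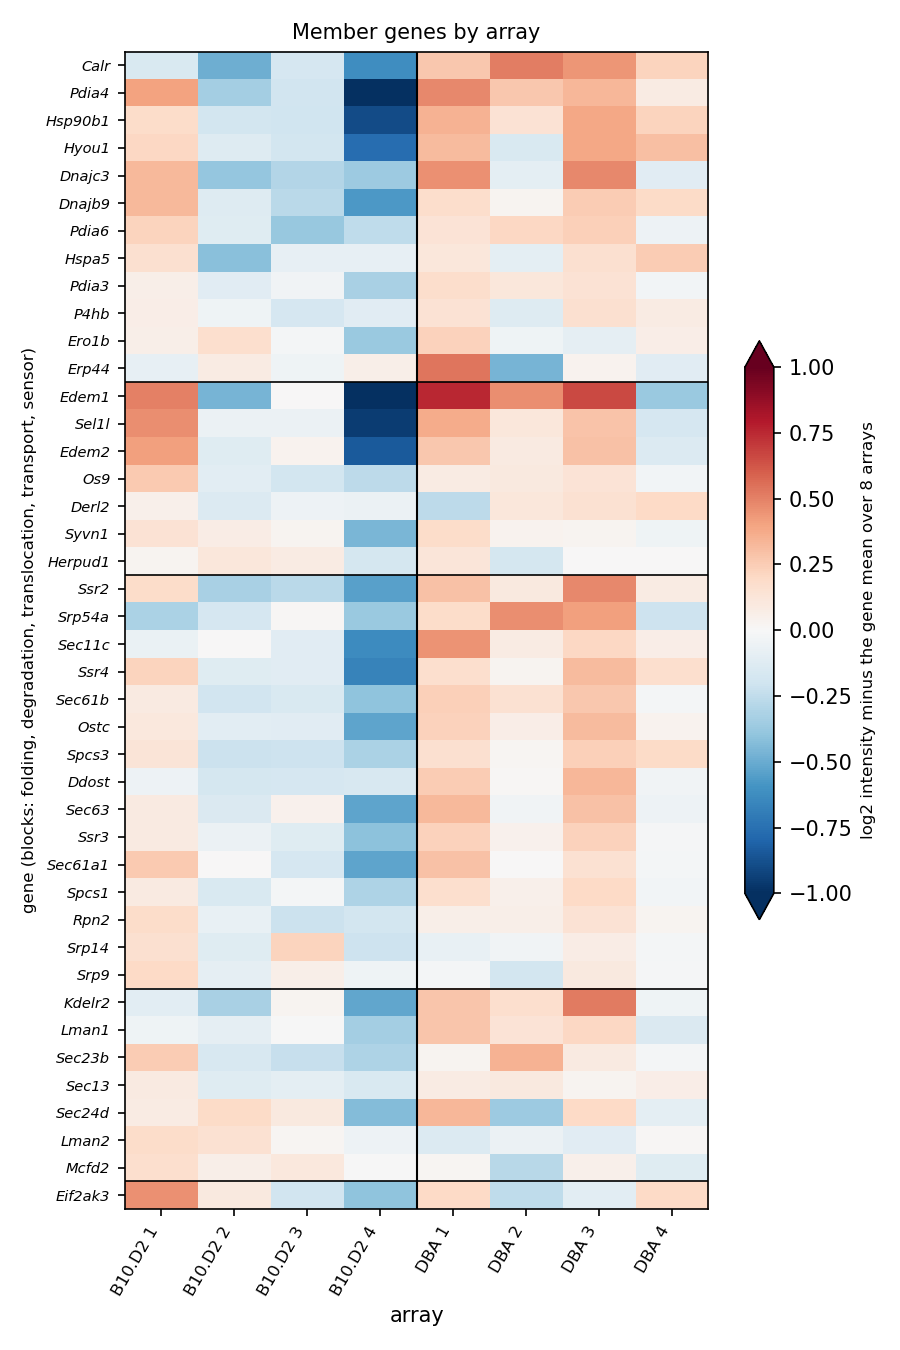
Deviation of each tested member gene from its own mean on each of the 8 arrays (colour, log2 scale, cut at -1 and 1), with genes in blocks by role. B10.D2 donor replicate 4 is the bluest column and B10.D2 donor replicate 1 resembles the DBA donor columns.

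Degradation genes had positive but uneven differences, with 6 of 7 tested genes positive (46% of all tested genes) and a median of 0.15. At an unadjusted p under 0.05, 0 of 7 were higher and 0 lower, against 6.14% and 8.15% of all tested genes. Among only 7 genes, a count of 0 is near those shares. Edem1, a mannosidase-like lectin that marks misfolded glycoproteins, had the largest difference of all members and the largest error. It read 8.03, 7.74, 7.93 and 6.90 on the DBA donor arrays and 7.78, 6.81, 7.28 and 5.71 on the B10.D2 donor arrays (0.76, SE 0.39, limma adjusted p = 0.413). The fourth replicate was lowest in both groups. Left-out arrays moved it between 0.36 and 1.05. Edem2 read 11.38, 11.20, 11.40 and 10.97 against 11.52, 10.99, 11.14 and 10.27 on its brightest probe (0.26, SE 0.23), and its other 3 tested probes had 0.17 to 0.57. The brightest probe was at 0.02 without B10.D2 donor replicate 4.

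Sel1l, the scaffold of the Hrd1 ligase, read 10.20, 9.94, 10.11 and 9.66 against 10.29, 9.77, 9.77 and 8.88 (0.30, SE 0.25; 0.03 without B10.D2 donor replicate 4). Syvn1, the Hrd1 ligase itself, read 12.29, 12.14, 12.13 and 12.06 against 12.25, 12.18, 12.13 and 11.65 (0.10, SE 0.13), and its sign turned without that array (-0.03) and with median scaling (-0.02). Os9, a lectin of the same complex, read 9.57, 9.58, 9.62 and 9.46 against 9.75, 9.38, 9.30 and 9.22 (0.15, SE 0.12, or -0.06 with median scaling). Herpud1 read 11.98, 11.68, 11.86 and 11.86 against 11.88, 11.97, 11.94 and 11.68 (-0.02, SE 0.10), and 0.11 on its other probe. Derl2, of the derlin family, differed by 0.10 and 0.23 on its tested probes, the larger on the dimmer one (unadjusted p = 0.0408). Over the 7 genes the median was 0.03 without B10.D2 donor replicate 4 and -0.02 with median scaling.

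Transport genes pointed both ways. Kdelr2, a receptor that retrieves KDEL-tailed chaperones, read 9.20, 9.09, 9.44 and 8.88 on the DBA donor arrays and 8.82, 8.60, 8.95 and 8.40 on the B10.D2 donor arrays. Only B10.D2 donor replicate 3 exceeded the lowest DBA donor array, and the difference was 0.46 (SE 0.15, 1.38-fold, limma adjusted p = 0.224), or 0.36 without B10.D2 donor replicate 4. Lman1, the cargo receptor ERGIC-53, read 8.82, 8.68, 8.75 and 8.40 against 8.50, 8.45, 8.54 and 8.20 (0.24, SE 0.12, limma adjusted p = 0.390; 0.01 with median scaling).

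Its partner Mcfd2, which binds Lman1 to carry coagulation factors, lay on the other side, at 9.20, 8.90, 9.23 and 9.06 against 9.35, 9.24, 9.29 and 9.18 (-0.17, SE 0.10, limma adjusted p = 0.459). Lman2, another lectin of the early secretory pathway, read 9.09, 9.17, 9.12 and 9.24 against 9.41, 9.38, 9.25 and 9.18 (-0.15, SE 0.09, limma adjusted p = 0.468). Both were the only members whose DBA donor arrays all lay below the B10.D2 donor arrays once replicate 4 was left out (10.8% of all tested genes did so). With median scaling Mcfd2 was at -0.38 and passed (limma adjusted p = 0.0415), as did 598 lower probes among all 12950. Of the COPII coat genes, Sec23b (0.23), Sec13 (0.14) and Sec24d (0.03) had overlapping groups. Over the 7 tested genes, 5 differences were positive, the median was 0.14 (0.01 with median scaling), and 1, Kdelr2, was higher at an unadjusted p under 0.05 (14.3%, against 6.14% of all tested genes).

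Of the sensors, Eif2ak3 alone was tested. It read 7.70, 7.25, 7.40 and 7.70 on the DBA donor arrays and 7.96, 7.60, 7.31 and 7.10 on the B10.D2 donor arrays. The groups lay across each other, and the difference of 0.02 (95% confidence interval -0.38 to 0.42) turned to -0.11 without B10.D2 donor replicate 4 and to -0.19 with median scaling. Ern1 was not detected on any array. These are RNA levels and say nothing of sensor activity.

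Side by side, the medians were 0.30 for folding, 0.28 for translocation, 0.15 for degradation and 0.14 for transport, and 0.23, 0.17, 0.03 and 0.11 without B10.D2 donor replicate 4. The differences between the groups of genes were not tested. Of 8 genes with several tested probes, 6 had the same sign on every probe, the exceptions being Herpud1 and Srp9.

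The spread within the B10.D2 donor group was wide for these genes. The mean over the 42 genes was 9.61, 9.43, 9.61 and 9.41 on the DBA donor arrays and 9.54, 9.27, 9.30 and 8.97 on the B10.D2 donor arrays. B10.D2 donor replicate 1 thus lay within the DBA donor range, and replicate 4 far below it. Within the B10.D2 donor group, replicate 1 was the highest array for 33 of the 42 genes (78.6%, against 28.2% of all tested genes), and replicate 4 the lowest for 33 (78.6%, against 36.9%). The range over the 4 B10.D2 donor arrays had a median of 0.55 among these genes and 0.35 among all tested genes. Over the DBA donor arrays it was 0.31 and 0.33.

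Leaving out either end moved the result in opposite directions. Without B10.D2 donor replicate 4 the median was 0.15, 33 of 42 differences were positive (all genes, 45.9%), and 8 genes were higher at an unadjusted p under 0.05 (19.0%, against 7.41%). The groups then did not overlap for 3 higher genes (7.14%, against 7.03% of all genes), which is close to the share of all genes. They did not overlap for 2 lower ones of the 42 (all genes, 10.8%). Without B10.D2 donor replicate 1 the median was 0.33, 26 genes were higher at an unadjusted p under 0.05 (all genes, 6.73%), and 19 had groups that did not overlap (all genes, 6.97%). In both cases limma's adjusted p was under 0.05 for 0 members.

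The medians were 0.26 and 0.24 without B10.D2 donor replicate 2 or 3. At an unadjusted p under 0.05, 9 genes were higher in either case (all genes, 4.41% and 4.87%), and the groups did not overlap for 3 and 4 genes (all genes, 4.51% and 4.96%). Leaving out a DBA donor array gave medians of 0.21 to 0.30. For replicates 1 to 4 in turn, 7, 11, 6 and 17 genes were higher at an unadjusted p under 0.05, against 5.26%, 5.37%, 3.69% and 6.44% of all genes. Groups did not overlap, with DBA donor arrays higher, for 4, 7, 3 and 8 genes, against 4.9%, 5.51%, 4.29% and 6.51%. Whichever array was left out, the share of members higher at the unadjusted threshold exceeded the share of all genes.

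**Figure D4:**
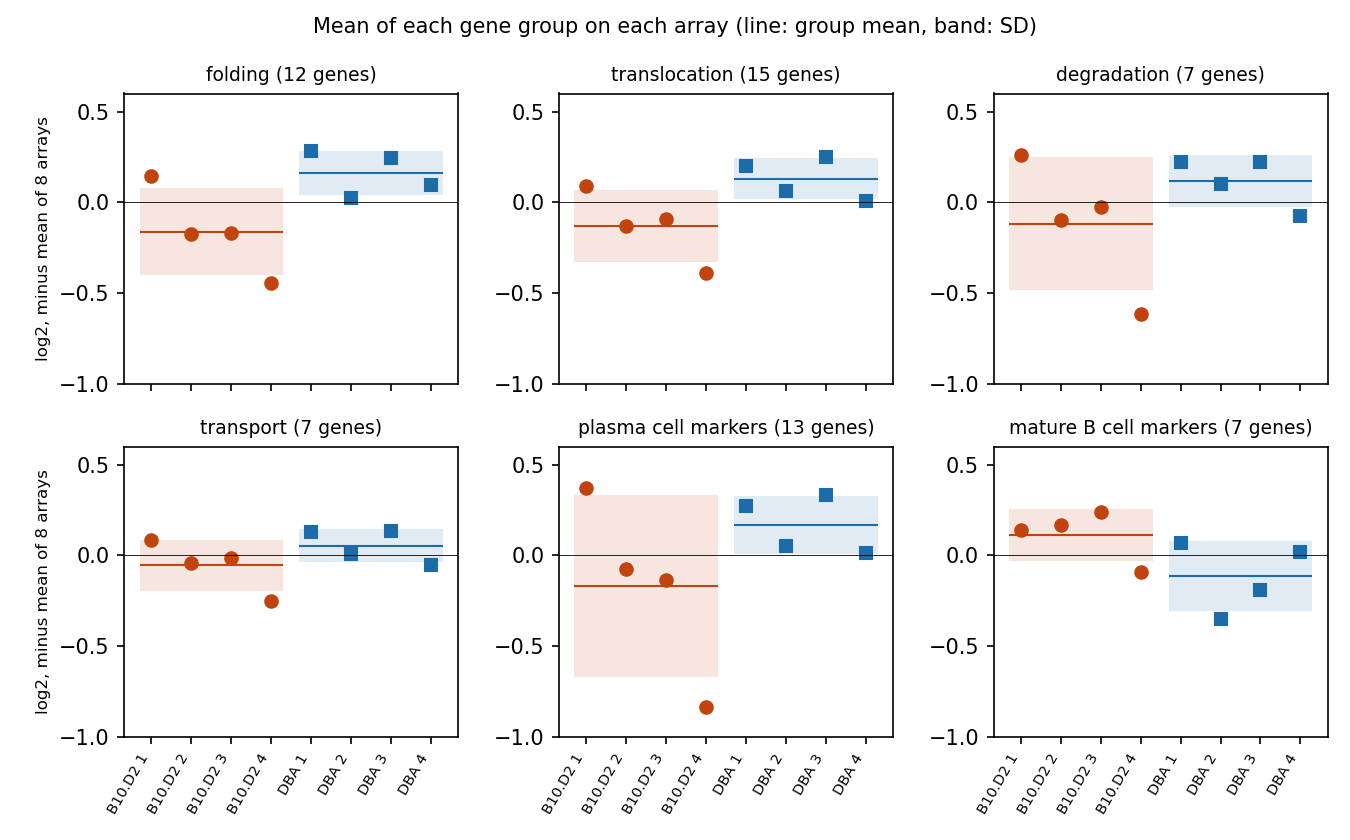
Mean log2 intensity of 4 groups of member genes and of plasma cell and mature B cell markers on each array, minus the mean over the 8 arrays (circles B10.D2 donor, squares DBA donor, line group mean, band SD, n = 4). On the B10.D2 donor arrays the plasma cell markers span 8.06 to 9.27 and each group of ER genes has the same highest and lowest array.

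Plasma cell markers had the same highest and lowest B10.D2 donor arrays as the ER genes. Of 16 such markers with a probe 13 were tested, with 11 positive differences (median 0.35) and 0 of 13 past limma's adjusted threshold (at an unadjusted p under 0.05, 3 were higher and 0 lower, against 6.14% and 8.15% of all tested genes). Their mean was 9.17, 8.95, 9.23 and 8.91 on the DBA donor arrays and 9.27, 8.82, 8.76 and 8.06 on the B10.D2 donor arrays. B10.D2 donor replicate 4 was the lowest of its group for 13 of the 13. That low array was not particular to them, being lowest also for 8 of 8 T cell and 6 of 7 mature B cell markers. It was lowest for 0 of 5 erythroid markers (all tested genes, 36.9%). Replicate 1 was highest for 12 of 13 plasma cell, 4 of 8 T cell and 1 of 7 mature B cell markers (all tested genes, 28.2%). Of the 13 plasma cell markers, 5 are also on the list of 54 other ER pathway genes (Xbp1, Derl3, Fkbp11, Creld2 and Txndc5). All 3 that were higher at the unadjusted threshold (Xbp1, Derl3 and Creld2) are among those 5. The other 8 are not free of ER genes, since they include the ER chaperone Mzb1 (0.41), which is on neither ER list. These 8 had a median of 0.17 and 0 genes past that threshold, with array means of 8.13 to 8.50 and 7.64 to 8.53. The medians without B10.D2 donor replicate 4 were 0.10 for the 13 and 0.01 for the 8, and 1 of the 13 was higher at that threshold (7.69%, against 7.41%). With median scaling the median of the 13 was 0.14.

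Among single markers, Mzb1, an ER chaperone of B and plasma cells, read 13.43, 13.21, 13.47 and 13.21 on the DBA donor arrays and 13.52, 13.11, 13.05 and 12.00 on the B10.D2 donor arrays (0.41, SE 0.26). Irf4 differed by 0.35 (SE 0.18) and the surface proteoglycan Sdc1 by 0.17 (SE 0.20), or 0.38 on its dimmer probe. Leaving out B10.D2 donor replicate 4 gave 0.10 for Mzb1, 0.17 for Irf4, and 0.05 and 0.32 for the probes of Sdc1. Eaf2 differed by 0.56 (SE 0.26), Pou2af1 by 0.17 (SE 0.18) and Tnfrsf13b by 0.02 (SE 0.12). Tnfrsf17 (-0.20, SE 0.18) and Slamf7 (-0.12, SE 0.15) were negative, and Txndc5 was at 0.02 (SE 0.17). Without that array these genes stood at 0.37, -0.03, -0.08, -0.33, -0.25 and -0.13 in turn, and 8 of the 13 markers were positive. Jchain, the joining chain of polymeric antibody, passed detection on 2 arrays of the DBA donor group and on 0 of the other. Prdm1, the regulator that defines plasma cells, was not detected on any array with either of its 2 probes, nor was Ell2. The part of plasma cell content in the ER difference was not tested.

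Mature B cell markers went the other way on their brightest probes, with 7 of 7 tested genes negative (median -0.19) and array means of 9.63 to 10.05 against 9.89 to 10.22. At an unadjusted p under 0.05, 2 of the 7 were lower (all tested genes, 8.15%). Their median without B10.D2 donor replicate 4 was -0.28, and for 4 of the 7 the DBA donor arrays then all lay lower (10.8% of all tested genes). Dimmer probes were at 0.14 and -0.31 for Cd22, and at 0.04 and -0.11 for Fcer2a. T cell markers had a median of -0.18 (1 of 8 positive), with means of 8.60 to 9.09 against 8.65 to 9.18, and -0.29 (0 of 8 positive) without B10.D2 donor replicate 4. With every array kept, 2 of the 8 T cell markers were lower at the same unadjusted threshold (all tested genes, 8.15%). The groups did not overlap for 1 of the 8 (all tested genes, 4.76%). Erythroid markers had a median of -0.16 (0.07 without B10.D2 donor replicate 4), with means of 11.19 to 12.18 against 11.27 to 12.33. Red pulp macrophage markers had a median of -0.01. On B10.D2 donor replicate 4, where pancreatic acinar RNA was detected, ER genes were low and not high, and the part of that RNA in any value was not tested.

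Beyond the 57 genes, 45 of 54 other genes of the ER pathway were tested, and 33 had a positive difference (median 0.12, or -0.07 with median scaling). In limma 0 of 45 passed at an adjusted p under 0.05. The unadjusted threshold of 0.05 was passed by 8 higher genes (17.8%, against 6.14%) and 0 lower ones. With B10.D2 donor replicate 4 left out it was passed by 4 higher genes (8.89%, against 7.41%), 28 of 45 differences were positive and the median was 0.07. Srprb, the beta subunit of the receptor for the signal recognition particle, read 9.30, 9.08, 9.24 and 8.93 against 8.94, 8.56, 8.78 and 8.35 (0.48, SE 0.14, limma adjusted p = 0.203). Srp19, another subunit of that particle, read 6.66, 6.68, 7.31 and 6.85 against 6.54, 6.19, 6.27 and 6.58, with groups that did not overlap (0.48, SE 0.15, limma adjusted p = 0.225). Mogs, the first glucosidase to trim N-glycans, differed by 0.31 (SE 0.10, limma adjusted p = 0.226), and without B10.D2 donor replicate 4 by 0.36.

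Creld2 and Derl3, which share the ER stress element, had the largest differences on this list, closely followed by Fkbp11. Fkbp11 (0.81, SE 0.43, limma adjusted p = 0.414, and 0.32 without B10.D2 donor replicate 4) was not among the genes found to hold the element. Creld2 read 10.86, 10.78, 10.80 and 10.39 against 10.67, 9.90, 10.04 and 8.97 (0.82, SE 0.29, limma adjusted p = 0.244). Its dimmer probe gave 0.84. Derl3, a derlin of secretory cells, read 7.36, 7.31, 7.30 and 7.05 against 7.52, 6.61, 6.27 and 5.25 (0.84, SE 0.37, limma adjusted p = 0.331). Xbp1, the factor that Ire1 splices, read 12.84, 12.68, 12.83 and 12.39 against 12.72, 12.24, 12.21 and 11.49 (0.52, SE 0.22, limma adjusted p = 0.315). Creld2, Derl3 and Xbp1 all had B10.D2 donor replicate 4 lowest, and without it stood at 0.51, 0.45 and 0.30. On the arm of Perk, Atf4 differed by 0.12 (SE 0.10), Ddit3 by 0.03 (SE 0.13) and Ppp1r15a by -0.25 (SE 0.20), and Trib3 was not detected on any array.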

How the data were processed

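Total RNA of 8 spleen samples was read on Illumina MouseRef-8 v2.0 BeadChips, 1 array per sample. Per the file headers, the deposited table holds mean bead intensity on a linear scale, not normalized, and a detection p-value per probe and array. A second deposited table holds intensity that the authors processed further by steps that no source here records. Its values are linear (lowest -16.5), its array medians of 13.9 to 14 are level, and its rank order within each array equals that of the first (rank correlation of 1). It was used only for an alternative fit. GenomeStudio is the one tool the submitters' processing notes name, and no build of the probes is stated.

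Intensities were corrected by normexp from the detection p-values with an offset of 16, quantile-normalized and put on a log2 scale (neqc, limma 3.58.1, R 4.3.3). The 12950 probes detected on at least 4 arrays (9028 named genes) were fitted with lmFit and eBayes (two-sided, no covariates) and adjusted by Benjamini-Hochberg over all of them. Of 25697 probes, 23978 had a gene symbol. A gene's value is its brightest tested probe. The fit was tested on simulated data. Members and lists were chosen with earlier results of these data known, and lists are described by counts and medians. Named members were those with the smallest p in each role (6 folding, 4 degradation, 6 translocation, 4 transport, the sensors) and 15 fixed genes. Of the other pathway genes 4 were named by p, and 9 non-members in any case. Atf4, Ddit3, Ppp1r15a, Trib3, Ell2, Eaf2, Pou2af1, Tnfrsf13b, Tnfrsf17, Slamf7, Txndc5, Fkbp11, Cd22, Fcer2a and members outside this rule were named after their values were seen. Protein sequences were not used here. Plots used Python 3.11.15 with matplotlib 3.10.9. The number of arrays limits the precision.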

Additional observations from a re-analysis of the deposited data

Results flagged for a closer look

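Among groups of 4 arrays, a highest or lowest array was marked where its gap to the nearest other array exceeded Dixon's 95% critical value for 4 samples. Of 96 groups examined 6 were marked, and chance marks about 1 in 20, or 4.8. Among the ER genes, Hyou1 was lowest on DBA donor replicate 2 (6.54, others 6.99 to 7.08) and Ddost was highest on B10.D2 donor replicate 1 (8.82, others 8.69 to 8.71). Creld2 was lowest on DBA donor replicate 4 (10.39, others 10.78 to 10.86). B10.D2 donor replicate 4 supplied the other 3. There Cela1 was at 10.87 (other B10.D2 donor arrays 8.32 to 8.67), the mean of the pancreatic acinar probes at 9.5 (4.73 to 4.83) and the mean of the T cell markers lowest at 8.65 (9.1 to 9.18). Outside the tested probes, 14 pancreatic acinar probes were detected on that array.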

How the results depend on the processing

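Of 539 values of 30 named genes under the alternatives, 523 kept their direction and their side of the threshold, 13 reversed and 3 passed the threshold where the main setting did not. Median scaling moved the median of all genes from -0.02 to -0.18 and the count of probes past an adjusted p of 0.05 in limma from 9 to 625 (27 higher, 598 lower). Under it 2 member probes passed (Calr at 0.50, Mcfd2 at -0.38), and the medians were 0.11 for translocation and -0.07 for other ER pathway genes. The groups did not overlap for 5 member genes (1 higher, 4 lower, against 3 higher in the main setting). No share of all genes is given for that count, so it says nothing particular to the members. Median scaling reversed Eif2ak3 (-0.19), Os9 (-0.06), P4hb (-0.0034) and Syvn1 (-0.02). Averaging the probes of a gene reversed Herpud1 (0.04). With array weights 38 probes passed, 1 of them a member, and at an adjusted p under 0.1, 35 passed, 1 of them a member (Calr in both). With the strict filter (10014 probes) and with no filter (25697) 0 of all probes passed. Leaving out each array in turn gave 0 to 9 probes past the threshold. Groups then did not overlap for 3 to 19 higher member genes (all genes, 4.29% to 7.03%). Differences were -0.11 to 0.18 for Eif2ak3, -0.09 to 0.03 for Herpud1 and -0.03 to 0.17 for Syvn1. The cause of these changes was not tested. Over all tested probes, deviations of same-numbered arrays correlated at 0.34, -0.353, 0.047 and 0.041 for replicates 1 to 4. Only replicate 1 matched its own number best, and it did so in both groups. The mean of the 42 member genes was lowest on replicate 4 in both groups (9.41 and 8.97). Whether the replicate numbers pair the arrays is therefore not settled. With the replicate number as a block 7 probes passed, 0 of them members. In this balanced design the block cannot change a difference, so the member median stayed at 0.24 by construction. At an unadjusted limma p under 0.05 there were 22 of the 53 member probes, against 15 in the main fit. No share of all probes is given for the count with the block. Dim probes such as Hspa5 have differences shrunk towards 0.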
